A study of Mus musculus with 12 samples.

Results

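The genes described here are the 5 NF-kappaB subunits, Rela, Relb, Rel, Nfkb1 and Nfkb2, and 5 genes whose products restrain or modify NF-kappaB signaling, Nfkbia, Nfkbiz, Bcl3, Tnfaip3 and Zfp36. They were chosen by name, and are 10 of the 55414 genes whose reads were counted in mouse liver. All 10 passed the filter on low counts. Bulk RNAseq was performed on the livers of 12 female C57Bl/6J mice, aged 8 to 12 weeks, in 4 groups of 3. Each mouse received an intraperitoneal injection of FeSO4 (300 mg/kg), which overloads the body with iron, or of NaCl at 0.9%, followed after 6 h by dexamethasone (DEX, 10 mg/kg) or PBS. DEX is a synthetic glucocorticoid that activates the glucocorticoid receptor (GR). Livers were isolated 2 h after the second injection, 8 h after the first. The groups are called NaCl/PBS, NaCl/DEX, FeSO4/PBS and FeSO4/DEX, and each library is 1 mouse, numbered within its group. No allele distinguishes the groups, and whole liver was taken, so that values are averages over hepatocytes and all other liver cells.

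NF-kappaB is a family of transcription factors that bind DNA as dimers. RelA, RelB and c-Rel (gene Rel) carry a transactivation domain, while p50 and p52 are cut from the longer products of Nfkb1 and Nfkb2 and lack one. In resting cells most dimers are held in the cytoplasm by IkappaB proteins, of which IkappaBalpha (gene Nfkbia) is the best known. Cytokines such as TNF and IL-1, and Toll-like receptor ligands, activate the IKK kinases, which mark IkappaBalpha for degradation and free the dimers. Freed dimers induce Nfkbia, Tnfaip3 and other inhibitors, which closes a feedback loop. Glucocorticoids are known to restrain NF-kappaB, in part by inducing inhibitors such as Nfkbia in some cells. The study asked how iron overload modifies GR function.

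Between 16335651 and 23827340 reads per liver were counted on genes. Each member had at least 12 reads in every mouse, the fewest being those of Relb in NaCl/DEX mouse 1. Hepatocyte markers were detected in every library. The summed normalized counts of 8 of them (Alb, Apoa1 and others) were 2043730 to 2393300 in the NaCl/PBS and 2427240 to 2735420 in the NaCl/DEX mice. In the FeSO4/PBS mice the sums were 2597970 to 2973720, and in the FeSO4/DEX mice 2941700 to 3020010. Over all genes FeSO4/PBS mouse 1 was the library farthest from its group, with a chi-square per gene between counts of 89.5 and 71.4 against mice 2 and 3, where pairs of mice in the other groups and FeSO4/PBS mice 2 and 3 gave 18.3 to 37.0. Without it the 9 members called after FeSO4 without DEX kept their calls, and over all genes the calls after DEX in NaCl mice went from 901 higher and 991 lower to 1284 and 1259. Among the members and inflammatory genes it was NaCl/PBS mouse 2 that stood apart from the other mice of its group. It had the highest value of its group for 9 of the 10 members, all except Nfkb1, with a ratio to the mean of the other 2 mice of 2.99 for Tnfaip3, 2.74 for Nfkbiz, 2.44 for Bcl3 and 1.96 for Relb. The same mouse had more reads of inflammatory genes picked after their values had been seen. Il1b had 50, 227 and 35 reads in NaCl/PBS mice 1, 2 and 3, and Cxcl1 had 362, 2616 and 129. The plot of the 3 NaCl/PBS mice shows these values. Values without this mouse are given beside several of the results below.

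**Figure D1:**
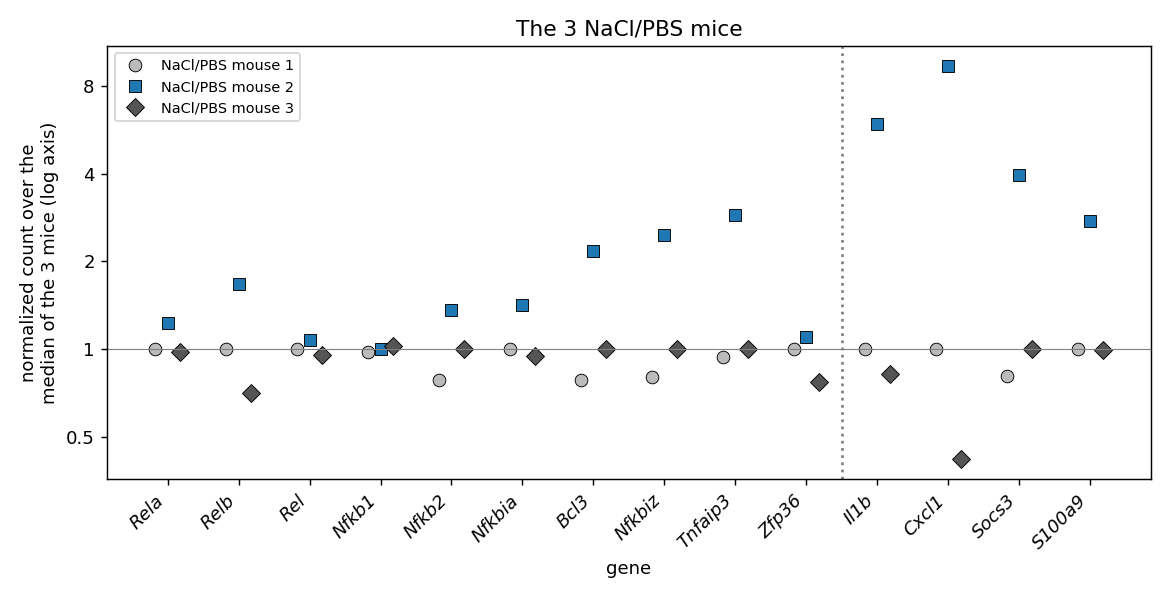
Normalized counts of the 10 members and of Il1b, Cxcl1, Socs3 and S100a9 (right of the dotted line, chosen after their values were seen) in each NaCl/PBS mouse, divided by the median of the 3 mice, on a log axis. Mouse 2 (blue squares) is the highest of the 3 for every gene shown except Nfkb1, from 1.11 times the mean of the other 2 mice for Rel to 2.99 times for Tnfaip3 among the members.

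The members lie on 7 chromosomes (GRCm39 build, GENCODE vM39 annotation). The subunit genes are Rela (ENSMUSG00000024927, chr19:5687493-5698161 plus strand), Relb (ENSMUSG00000002983, chr7:19339017-19363425 minus strand), Rel (ENSMUSG00000020275, chr11:23686847-23721264 minus strand), Nfkb1 (ENSMUSG00000028163, chr3:135290264-135397742 minus strand) and Nfkb2 (ENSMUSG00000025225, chr19:46292759-46303812 plus strand). The others are Nfkbia (ENSMUSG00000021025, chr12:55535332-55539432 minus strand), Nfkbiz (ENSMUSG00000035356, chr16:55631738-55659262 minus strand), Bcl3 (ENSMUSG00000053175, chr7:19541553-19557570 minus strand), Tnfaip3 (ENSMUSG00000019850, chr10:18874201-18891405 minus strand) and Zfp36 (ENSMUSG00000044786, chr7:28076209-28079710 minus strand). Relb and Bcl3 are 178127 bases apart. All 10 are protein-coding. Nfkb2, Nfkbia, Bcl3 and Zfp36 overlap annotated genes on the opposite strand. The libraries were stranded, but the sources do not say which strand column was counted, so that reads of these 4 genes and of their antisense partners may not be told apart. Gm43430 overlaps Nfkb1 on the same strand, so that the division of reads between them is uncertain.

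The RefSeq promoter table (GRCm38.p6 build, 250 bases before to 50 bases after a start site) held 10 promoters of 7 members, and each was found once by exact match in GRCm39. Relb, Nfkb1 and Nfkbiz were not in the table. The 4 promoters printed here are those of 3 inhibitors and of 1 subunit gene in which the NF-kappaB consensus was found, written 5′ to 3′ on the strand of the gene. Capitals mark matches to the NF-kappaB consensus on either strand and to the AP-1 site TGANTCA.
Nfkbia, chr12:55539383-55539682, minus strand: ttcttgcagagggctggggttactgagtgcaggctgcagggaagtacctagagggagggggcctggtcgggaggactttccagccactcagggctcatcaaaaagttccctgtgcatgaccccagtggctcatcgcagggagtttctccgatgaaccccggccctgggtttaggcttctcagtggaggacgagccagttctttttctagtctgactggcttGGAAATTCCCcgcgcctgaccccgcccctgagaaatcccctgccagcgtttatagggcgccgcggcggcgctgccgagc
Bcl3, chr7:19556631-19556930, minus strand: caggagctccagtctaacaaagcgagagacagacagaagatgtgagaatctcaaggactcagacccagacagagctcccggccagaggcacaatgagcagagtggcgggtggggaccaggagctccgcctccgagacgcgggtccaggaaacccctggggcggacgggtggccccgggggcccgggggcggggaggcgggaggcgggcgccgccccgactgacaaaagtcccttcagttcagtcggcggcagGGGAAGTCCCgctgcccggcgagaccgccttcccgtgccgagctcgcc
Tnfaip3, chr10:18891109-18891408, minus strand: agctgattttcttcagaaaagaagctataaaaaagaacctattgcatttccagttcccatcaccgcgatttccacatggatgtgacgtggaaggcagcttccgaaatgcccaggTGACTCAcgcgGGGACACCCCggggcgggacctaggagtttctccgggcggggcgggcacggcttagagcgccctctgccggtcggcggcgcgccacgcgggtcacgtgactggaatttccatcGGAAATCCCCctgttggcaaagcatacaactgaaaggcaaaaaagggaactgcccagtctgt
Nfkb2, chr19:46292926-46293225, plus strand: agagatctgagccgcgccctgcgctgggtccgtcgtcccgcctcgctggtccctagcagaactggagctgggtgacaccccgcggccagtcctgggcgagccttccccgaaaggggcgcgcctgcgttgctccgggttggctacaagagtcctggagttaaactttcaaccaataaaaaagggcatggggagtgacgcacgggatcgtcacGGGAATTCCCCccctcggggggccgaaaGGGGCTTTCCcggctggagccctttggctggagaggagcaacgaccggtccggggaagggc
The capitals of Nfkbia span -29 to -20 from the start site and those of Bcl3 3 to 12. Those of Tnfaip3 mark an AP-1 site at -136 to -130, which stands just before a first NF-kappaB match at -125 to -116, and a further match at -12 to -3. Those of Nfkb2 mark a pair of overlapping matches at -39 to -29 and another at -11 to -2.

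The NF-kappaB consensus was found for 5 of the 7 members in the table, Nfkb2, Rel, Nfkbia, Bcl3 and Tnfaip3, and not in the windows of Rela and Zfp36. Of all 27025 genes of the table, 5.14% had it in a promoter on either strand, and of all 32851 promoters 4.51%. The AP-1 site TGANTCA was found for 2 of the 7, Tnfaip3 and the second promoter of Nfkb2, and for 8.97% of all genes (7.81% of promoters). The core of a glucocorticoid response element, spelled ACANNNTGT, was found in 0 of the 7 and for 7.9% of all genes (6.85% of promoters). These are matches of letters in windows of that length and say nothing of sites outside them.

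Levels of different genes were compared per length, as RPKM, which divides a gene's reads by the length of its canonical transcript and by the depth of the library. In NaCl/PBS mice Zfp36, which encodes tristetraprolin, a protein that promotes decay of AU-rich mRNAs, had the highest level of the 10 with 29.1 ± 5.16 RPKM (mean ± SD, n = 3, as throughout). Nfkbia followed with 23.9 ± 5.49, and Rela had 12.1 ± 1.59 RPKM. Bcl3 stood between these, with 15.5 ± 8.80. Nfkb1 (5.71 ± 0.135), Nfkbiz (3.92 ± 2.51), Nfkb2 (1.54 ± 0.429), Rel (1.37 ± 0.0866) and Relb (1.14 ± 0.501) followed. Tnfaip3 was lowest, with 0.927 ± 0.640 RPKM. Neighbours in this order differed by less than the sum of their SDs, except Rela and Nfkb1. With the length of all exons in place of the canonical transcript, Bcl3 had 5.97 and Nfkb1 2.09 RPKM, and the order changed within the pairs Bcl3 and Rela, Nfkb1 and Nfkbiz, and Nfkb2 and Rel. Bcl3 ranged most between groups, from 7.29 ± 1.43 RPKM in NaCl/DEX to 97.8 ± 6.76 RPKM in FeSO4/DEX mice. The values of the genes by mouse are given from here on as normalized counts, which compare the same gene between mice, not different genes.

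**Figure D2:**
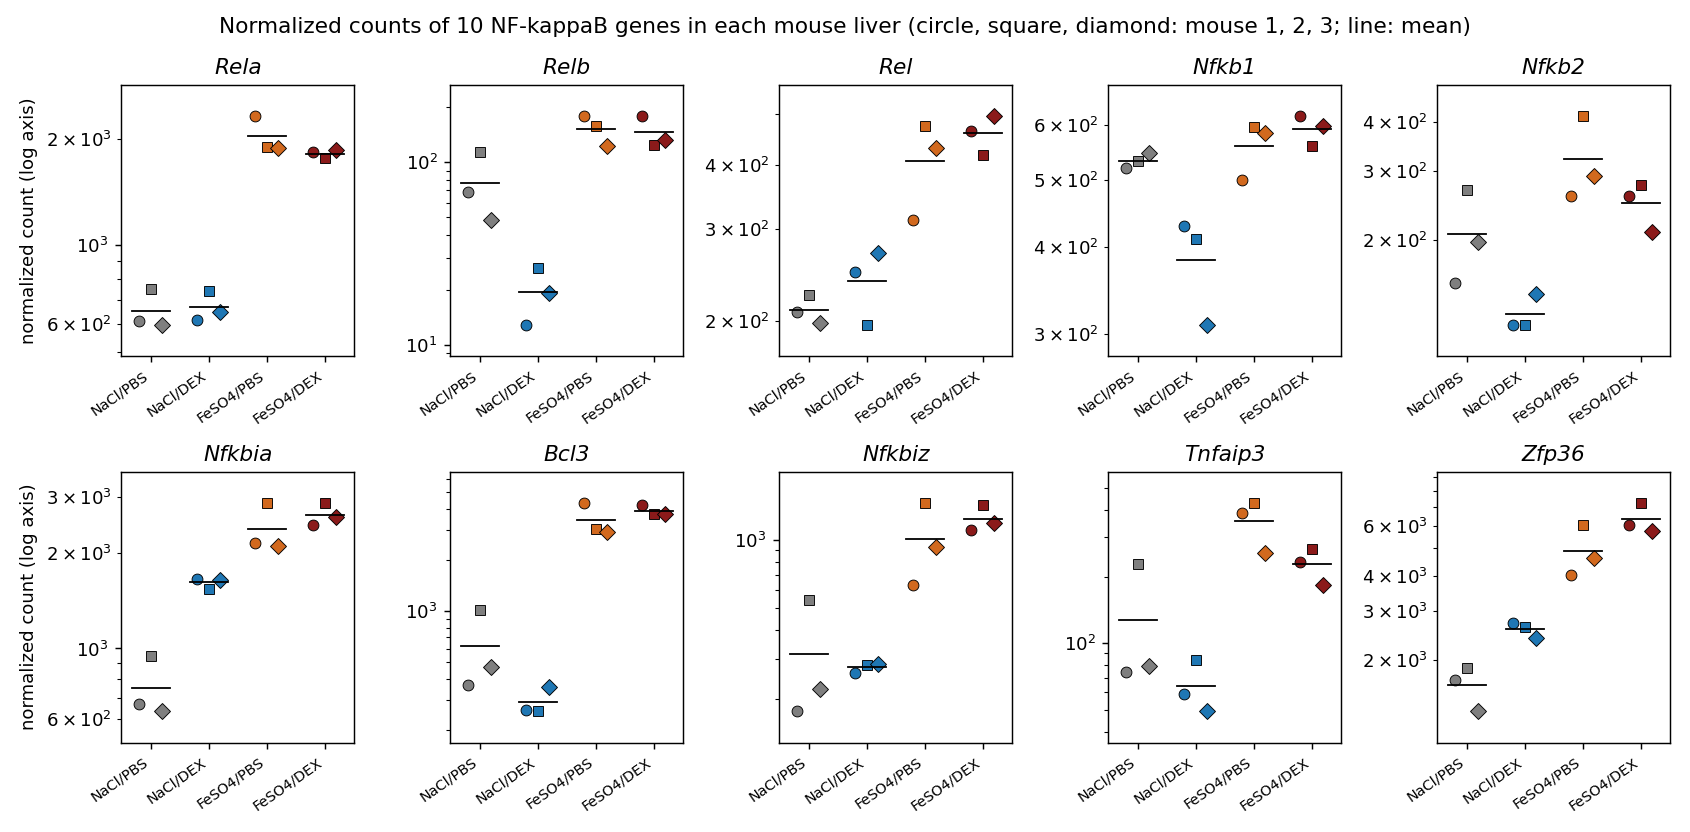
Normalized count (log axis, with a range of its own for each gene) of the 10 members in every mouse, with 1 marker shape per mouse number and a line at the group mean. The FeSO4/PBS mice lie above the NaCl/PBS mice for Rela, Relb, Rel, Nfkbia, Nfkbiz, Bcl3, Tnfaip3 and Zfp36, and the NaCl/DEX mice lie below the NaCl/PBS mice for Relb, Nfkb1, Nfkb2 and Bcl3 and above them for Nfkbia and Zfp36. The shares of all tested genes with such a separation are not given here.

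FeSO4 without DEX, taken from FeSO4/PBS and NaCl/PBS mice, asks how these genes moved after FeSO4 when no DEX was given. The study reported that FeSO4 raised serum corticosterone, an endogenous glucocorticoid. In this comparison an effect of iron and one of endogenous glucocorticoid cannot be told apart. Of the 10 members, 9 were higher and 0 lower by edgeR's quasi-likelihood test with Benjamini-Hochberg adjustment (edgeR adjusted p) at 0.05 over all 13857 genes tested. Of all genes tested, 27.2% were called higher and 27.3% lower in this comparison. The share of all tested genes whose groups do not overlap is not given here for any comparison, so that a lack of overlap only describes the gene named. For the lower direction no member had an unadjusted p under 0.05 either (0 of 10), and DESeq2 called 0. Log2 fold changes (LFC) are given ± SE. The median LFC of the 10 was 1.55, beside -0.02 over all tested genes. Scaling by library size alone moved the median of all genes to -0.34 and the calls to 2285 higher and 5829 lower, from 3770 and 3783 with TMM factors. In whole liver a change of the RNA per cell and a change in the number of cells of a type cannot be told apart.

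Among the subunits, Rela rose most. RelA is the transactivating partner of the classical p50 and RelA dimer. Its normalized counts were 609, 751 and 596 in NaCl/PBS livers against 2318, 1897 and 1882 in FeSO4/PBS livers, and the lowest FeSO4 value lay far above the highest NaCl value. The LFC of Rela was 1.64 ± 0.13 (edgeR adjusted p 2.2e-07). Rel, which encodes c-Rel, known mostly from lymphocytes and myeloid cells, had 208, 224 and 198 against 312, 475 and 431, also without overlap, with an LFC of 0.95 ± 0.16 (edgeR adjusted p 2.4e-04). Relb, the partner of p52 in the noncanonical pathway, had few reads, with 68.3, 114 and 48.2 normalized counts in NaCl/PBS against 178, 158 and 122 in FeSO4/PBS livers. NaCl/PBS mouse 2 came close to the lowest FeSO4/PBS value. The LFC of Relb was 1.00 ± 0.29 (edgeR adjusted p 0.010), and 1.39 (edgeR adjusted p 0.0014) without that mouse. With library size alone as scaling its LFC was 0.68 and the call was lost (edgeR adjusted p 0.063).

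The precursor genes moved less. Nfkb2, which encodes p100 and p52, had 155, 268 and 197 against 259, 414 and 291. The groups overlapped, since NaCl/PBS mouse 2 was above FeSO4/PBS mouse 1, and the LFC was 0.64 ± 0.21 (edgeR adjusted p 0.020). The call of Nfkb2 was lost without FeSO4/PBS mouse 2 (edgeR adjusted p 0.11), NaCl/PBS mouse 1 (0.095) or NaCl/PBS mouse 3 (0.061), and with library size alone as scaling. Nfkb1, the gene of p105 and p50, was the member that was not called. It had 521, 532 and 546 against 499.9, 596 and 584, with FeSO4/PBS mouse 1 below all NaCl/PBS mice, and its LFC was 0.07 with a 95% confidence interval of -0.20 to 0.34 (edgeR adjusted p 0.66). With library size alone the LFC of Nfkb1 turned to -0.25.

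All 5 inhibitors and modifiers rose. Bcl3, an atypical IkappaB protein of the nucleus that binds p50 and p52 homodimers, had the largest LFC of the 10 members. Its normalized counts were 368, 1022 and 469.8 in NaCl/PBS livers against 4338, 3048 and 2914 in FeSO4/PBS livers. Every FeSO4/PBS mouse lay above every NaCl/PBS mouse, and the LFC was 2.47 ± 0.30 (edgeR adjusted p 1.4e-05), or 3.04 (edgeR adjusted p 3.4e-07) without NaCl/PBS mouse 2. Nfkbiz, which encodes the nuclear IkappaBzeta, had 177, 545 and 221 against 634, 1448 and 929.7. Its highest NaCl/PBS value, that of mouse 2, came close to the lowest FeSO4/PBS value, and the LFC of Nfkbiz was 1.68 ± 0.35 (edgeR adjusted p 0.0011). Without NaCl/PBS mouse 2 it was 2.34 (edgeR adjusted p 2.0e-05).

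Nfkbia had normalized counts of 667, 946 and 633 in NaCl/PBS livers against 2154, 2879 and 2100.5 in FeSO4/PBS livers. The lowest FeSO4/PBS mouse lay far above the highest NaCl/PBS mouse, and the LFC was 1.67 ± 0.16 (edgeR adjusted p 1.7e-06). Tnfaip3, which encodes A20, a ubiquitin-editing enzyme that shuts off signaling to IKK, had 74.1, 228 and 78.7 against 387, 429 and 256. Its lowest FeSO4/PBS value lay only just above NaCl/PBS mouse 2. The LFC of Tnfaip3 was 1.51 ± 0.36 (edgeR adjusted p 0.0028), and 2.23 (edgeR adjusted p 2.4e-05) without NaCl/PBS mouse 2. Zfp36 had 1695, 1875 and 1310.3 against 4016, 6053 and 4620.5, again without overlap, and its LFC was 1.59 ± 0.17 (edgeR adjusted p 3.4e-06).

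**Figure D3:**
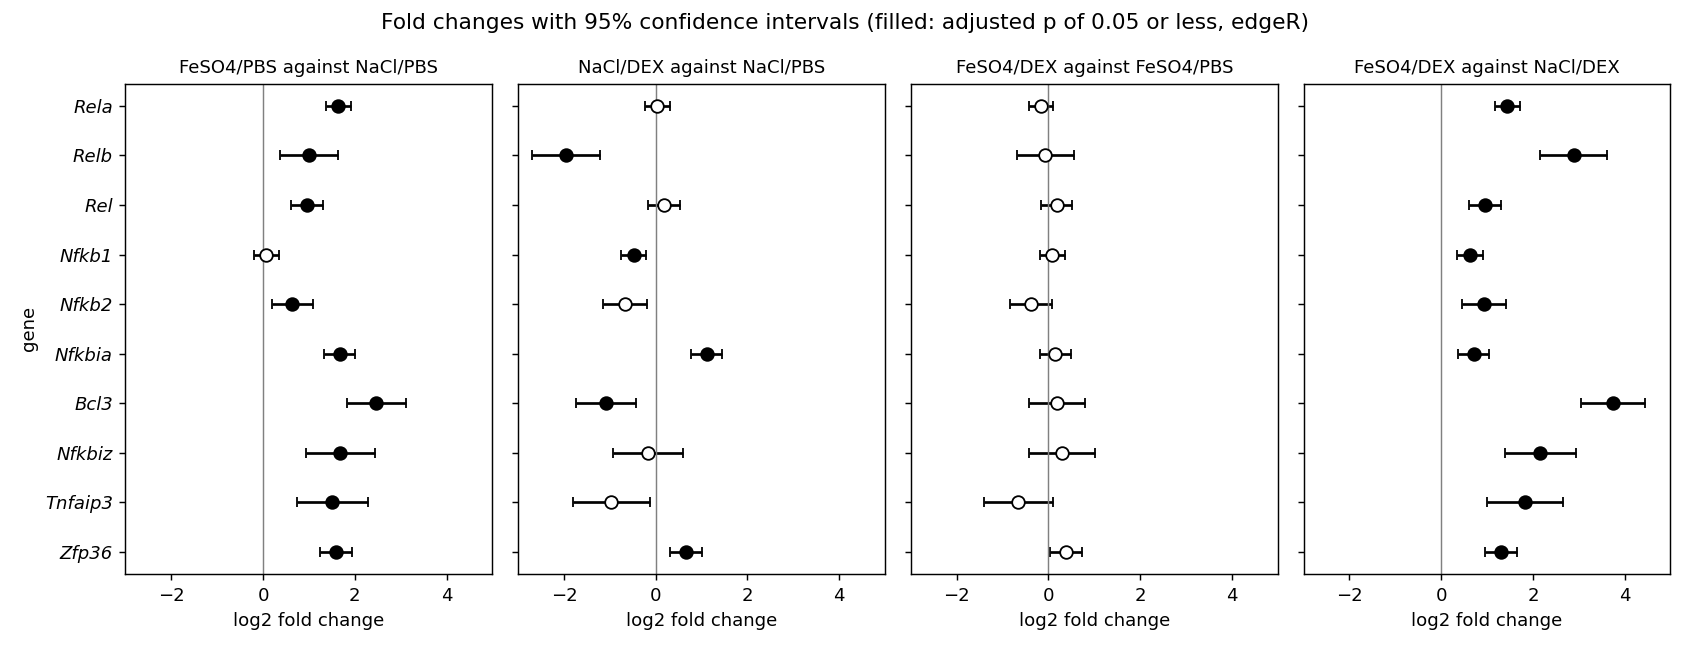
LFC of each member (points, with 95% confidence intervals as bars) in the 4 comparisons between groups; filled points have an edgeR adjusted p of 0.05 or less. With FeSO4 against NaCl 9 members were called without DEX and 10 with DEX, while 5 were called by DEX in NaCl mice and 0 by DEX in FeSO4 mice.

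DEX in NaCl mice, taken from NaCl/DEX and the same NaCl/PBS mice that serve as controls for FeSO4, asks how 2 h of DEX moved these genes in the absence of iron overload. DEX moved the members in both directions, and 2 were called higher, Nfkbia and Zfp36, and 3 lower, Relb, Bcl3 and Nfkb1. Of all genes tested, 6.50% were called higher and 7.15% lower. The median LFC of the 10 was -0.33, beside -0.02 over all tested genes. This median rests on NaCl/PBS mice of which mouse 2 was the highest for 9 of the 10 members. Without mouse 2 the LFC was -1.56 for Relb, -0.51 for Bcl3, -0.24 for Tnfaip3 and 0.49 for Nfkbiz, and the median was not computed.

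The inhibitors Nfkbia and Zfp36 rose. Nfkbia had 1658, 1544 and 1645 normalized counts in the NaCl/DEX mice, beside 667, 946 and 633 in the NaCl/PBS mice. The 3 NaCl/DEX mice were close to each other and above all NaCl/PBS mice, with an LFC of 1.11 ± 0.16 (edgeR adjusted p 3.3e-04). Zfp36 had 2719, 2626 and 2402, beside 1695, 1875 and 1310.3, without overlap. Its LFC was 0.67 ± 0.16 (edgeR adjusted p 0.015), and the call was lost without NaCl/DEX mouse 1 (edgeR adjusted p 0.052) or NaCl/PBS mouse 3 (0.074). The call of Nfkbia was kept with any 1 mouse left out.

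Relb fell most. Its normalized counts were 12.9, 26.3 and 19.1 in the NaCl/DEX mice, beside 68.3, 114 and 48.2 in the NaCl/PBS mice. The highest NaCl/DEX value was below the lowest NaCl/PBS value, and the LFC was -1.96 ± 0.34 (edgeR adjusted p 0.0016). The call of Relb was kept with any 1 mouse left out, and its LFC was -1.56 (edgeR adjusted p 0.0058) without NaCl/PBS mouse 2. Bcl3 had 259.8, 257 and 357, also all below the NaCl/PBS mice, with an LFC of -1.09 ± 0.30 (edgeR adjusted p 0.027). This call was lost when single mice were left out. Without NaCl/PBS mouse 2 the LFC of Bcl3 was -0.51 (edgeR adjusted p 0.13), and the adjusted p was also above the threshold without NaCl/DEX mouse 1 (0.093) or mouse 2 (0.097).

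Nfkb1 had 429, 411 and 309 in the NaCl/DEX mice, all below the NaCl/PBS mice, which lay within a narrow range of 521 to 546. Its LFC was -0.48 ± 0.13 (edgeR adjusted p 0.022). The call was lost without NaCl/PBS mouse 1 (0.065), mouse 2 (0.064) or mouse 3 (0.085), or NaCl/DEX mouse 3 (0.10), while the direction stayed. Without NaCl/PBS mouse 2, 1 member was called lower, Relb, in place of 3.

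The other members were not called in NaCl mice. Nfkb2 had 121, 121 and 145 in the NaCl/DEX mice, all below the NaCl/PBS mice, and its LFC was -0.67 ± 0.22 (edgeR adjusted p 0.058). Nfkb2 lay near the threshold, and its adjusted p was 0.042 by DESeq2 and 0.019 by edgeR with library size alone. With each mouse left out in turn its LFC ranged from -0.84 to -0.43 and its edgeR adjusted p from 0.032 to 0.25. Tnfaip3 had 59.0, 83.7 and 49.3, overlapping the NaCl/PBS mice, with an LFC of -0.97 ± 0.39 (edgeR adjusted p 0.12). Without NaCl/PBS mouse 2 the LFC of Tnfaip3 was -0.24 (edgeR adjusted p 0.66). Nfkbiz had 261, 282 and 285, between NaCl/PBS mouse 3 and mouse 2, and an LFC of -0.18 (95% confidence interval -0.94 to 0.58) that turned to 0.49 (edgeR adjusted p 0.30) without NaCl/PBS mouse 2. Rela and Rel had 614, 743 and 647 and 248, 197 and 269.8, overlapping the NaCl/PBS mice. The LFC was 0.04 for Rela (-0.23 to 0.30) and 0.18 for Rel (-0.17 to 0.53).

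DEX in FeSO4 mice, taken from FeSO4/DEX and FeSO4/PBS mice, called 0 of the 10 members in either direction by edgeR, and 0 by DESeq2. Of all genes tested edgeR called 0% higher and 0% lower, and 900 genes had an unadjusted p under 0.05. Among the members Zfp36 was the 1 with an unadjusted p under 0.05 (0.036, edgeR quasi-likelihood test, edgeR adjusted p 0.76). Its normalized counts were 6070.3, 7264 and 5759.7 in the FeSO4/DEX mice, beside 4016, 6053 and 4620.5 in the FeSO4/PBS mice, with an LFC of 0.38 and a 95% confidence interval of 0.03 to 0.73. The FeSO4/DEX mice were mostly higher, but the groups overlapped.

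For Nfkbia the FeSO4/DEX mice had 2449, 2875 and 2603, within the range of the FeSO4/PBS mice, and the LFC was 0.15 (95% confidence interval -0.18 to 0.49). The upper end of this interval is below the LFC of 1.11 seen in NaCl mice. Relb had 179, 125 and 133 and Bcl3 4221, 3748 and 3759. Both overlapped the FeSO4/PBS mice, with LFCs of -0.07 (-0.68 to 0.55) and 0.19 (-0.42 to 0.80).

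Rela had 1833, 1762 and 1855, all slightly below the FeSO4/PBS mice, although its LFC of -0.16 (-0.42 to 0.10) was not called. Nfkb1 had 618, 559 and 598, Nfkb2 258, 276 and 209 and Rel 465, 417 and 496. These 3 subunits overlapped the FeSO4/PBS mice, with LFCs of 0.08 (-0.19 to 0.35), -0.38 (-0.83 to 0.08) and 0.18 (-0.16 to 0.52). Nfkbiz had 1098, 1423 and 1185 and Tnfaip3 233, 266 and 183, and both overlapped the FeSO4/PBS mice. Their 95% confidence intervals were -0.43 to 1.02 around an LFC of 0.30 and -1.41 to 0.10 around -0.66.

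FeSO4 in DEX-treated mice, taken from FeSO4/DEX and NaCl/DEX mice, raised all 10 members, and 0 were called lower or had an unadjusted p under 0.05 in that direction by edgeR, and 0 were lower by DESeq2. Of all genes tested, 22.4% were called higher and 20.9% lower. The LFC was largest for Bcl3, 3.75 ± 0.32 (edgeR adjusted p 9.7e-07), and for Relb, 2.89 ± 0.34 (edgeR adjusted p 1.5e-05), and smallest for Nfkb1, 0.63 ± 0.13 (edgeR adjusted p 0.0013), and Nfkbia, 0.71 ± 0.16 (edgeR adjusted p 0.0023). The LFCs of the others lay between 0.94 for Nfkb2 and 2.16 for Nfkbiz. No FeSO4/DEX mouse overlapped the NaCl/DEX mice for any of the 10, and each call was kept with any 1 mouse left out. The share of all tested genes without overlap in this comparison is not given here. This comparison uses the same NaCl/DEX mice as the DEX effect in NaCl mice.

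Whether the DEX responses in NaCl and in FeSO4 mice differed was tested as the difference between both LFCs, that of FeSO4 mice minus that of NaCl mice. Relb was called higher and Nfkbia lower, 1 each of 10, where 2.99% of all genes tested were higher and 3.20% lower. For Relb the difference was 1.89 ± 0.45 (edgeR adjusted p 0.023), with a fall in NaCl mice and an LFC near 0 in FeSO4 mice. For Nfkbia it was -0.96 ± 0.22 (edgeR adjusted p 0.020), with a rise in NaCl mice and an LFC near 0 in FeSO4 mice. The plot of both DEX responses shows these genes away from the line of equal response. Both calls were lost when some single mice were left out. That of Relb was lost without FeSO4/DEX mouse 1 (0.059), FeSO4/PBS mouse 3 (0.052), NaCl/DEX mouse 1 (0.066) or NaCl/DEX mouse 3 (0.060). That of Nfkbia was lost without FeSO4/DEX mouse 1 (0.051), NaCl/PBS mouse 1 (0.059) or NaCl/PBS mouse 3 (0.056).

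**Figure D4:**
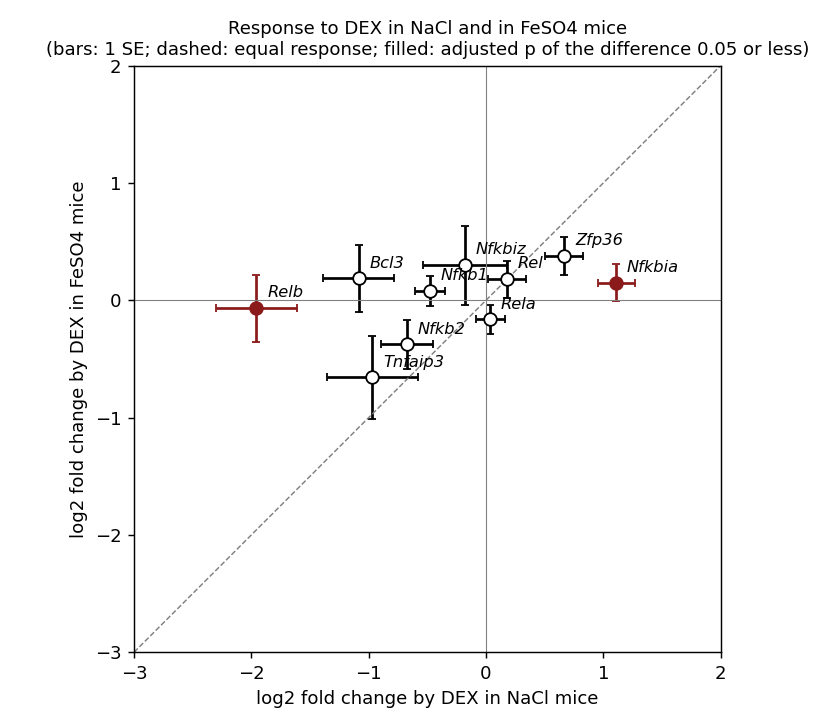
LFC by DEX in NaCl mice (horizontal axis) and in FeSO4 mice (vertical axis) of the 10 members, with bars of 1 SE and a dashed line of equal response; both axes are log2. The filled points, Relb and Nfkbia, are those whose responses differed with an edgeR adjusted p of 0.05 or less, and both have an LFC near 0 in FeSO4 mice.

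Bcl3 and Nfkb1 showed differences of 1.27 ± 0.41 (edgeR adjusted p 0.090) and 0.56 ± 0.18 (edgeR adjusted p 0.087), which did not pass. Bcl3 passed with DESeq2 (adjusted p 0.036), and its difference was 0.69 (edgeR adjusted p 0.16) without NaCl/PBS mouse 2 and 1.53 (edgeR adjusted p 0.034) without NaCl/PBS mouse 1. Zfp36 rose with DEX in NaCl mice and was not called in FeSO4 mice, but its difference of -0.29 (95% confidence interval -0.78 to 0.21, edgeR adjusted p 0.53) did not show that the responses were unlike. The differences of Rela, Rel, Nfkb2, Nfkbiz and Tnfaip3 had edgeR adjusted p-values of 0.57, 1.00, 0.64, 0.63 and 0.79.

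Shares of the subunit pool were computed from the 5 per-length subunit levels within each liver, which removes the scaling between libraries. Rela made up 55.3% ± 0.984 of the pool in the NaCl/PBS, 64.1% ± 2.87 in the NaCl/DEX, 73.8% ± 4.07 in the FeSO4/PBS and 71.7% ± 1.00 in the FeSO4/DEX mice. Nfkb1 made up 26.4% ± 2.98, 21.3% ± 3.32, 11.8% ± 1.83 and 13.5% ± 0.255 in the same order. The transactivating subunit Rela took a larger share of the pool, and the p50 precursor gene a smaller one, in both FeSO4 groups than in both NaCl groups. Relb took 5.11% ± 1.66 in NaCl/PBS and 1.48% ± 0.433 in NaCl/DEX mice, the smallest share of any subunit in any group. Dividing by the length of all exons instead, an alternative chosen after the data had been seen, gave shares of Rela of 64.5%, 71.6%, 78.7% and 77.1%, and shares of Nfkb1 of 13.6%, 10.5%, 5.58% and 6.39%, so that the size of the Nfkb1 share depends on the length used. The shares are of mRNA, not of protein.

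The per-length ratio of the inhibitor Nfkbia to its target Rela, chosen after the values of both had been seen, was 1.89, 2.17 and 1.83 in the NaCl/PBS and 1.60, 2.61 and 1.92 in the FeSO4/PBS mice. It was 4.65, 3.58 and 4.38 in the NaCl/DEX and 2.30, 2.81 and 2.42 in the FeSO4/DEX mice. The NaCl/DEX mice lay above all other mice, while the FeSO4/PBS values spread around those of the NaCl/PBS mice. On the log2 scale NaCl/DEX exceeded NaCl/PBS by 1.09, and FeSO4/DEX minus NaCl/DEX was -0.74, where a two-sided exact permutation test gave p = 0.1, the smallest that 3 against 3 mice allow, and 0.23 after Benjamini-Hochberg adjustment over the 16 comparisons of 4 ratios.

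The rest of the pathway was described from lists, without the 10 members. The counts of each list stand beside shares of all tested genes of 27.2% higher and 27.3% lower after FeSO4 without DEX. After DEX in NaCl mice these shares were 6.50% and 7.15%. The median LFC of all tested genes after FeSO4 without DEX was -0.02, and -0.34 under scaling by library size alone. Of the receptors and ligands, 19 of 25 listed genes were tested. After FeSO4 without DEX 5 were higher and 6 lower (median LFC 0.20, or -0.13 with 5 and 7 under scaling by library size alone), and after DEX in NaCl mice 2 were higher and 4 lower (-0.34). FeSO4 raised Cd14, the LPS co-receptor, with an LFC of 4.03 ± 0.38 (edgeR adjusted p 1.5e-06), Il1r1, the IL-1 receptor, with 2.18 ± 0.28 (edgeR adjusted p 2.4e-05), and Tnfrsf1a, the TNF receptor p55, with 1.70 ± 0.15 (edgeR adjusted p 1.0e-06). Tlr3 fell, with -0.995 ± 0.19 (edgeR adjusted p 5.7e-04). DEX in NaCl mice raised Il1r1, 1.35 ± 0.28 (edgeR adjusted p 0.0048), and Tnfrsf1b, 0.68 ± 0.15 (edgeR adjusted p 0.0077), and lowered Tlr2, -2.38 ± 0.53 (edgeR adjusted p 0.0078), and Il1b. Il1b had 50, 227 and 35 reads in NaCl/PBS, 2, 3 and 0 in NaCl/DEX, 97, 125 and 71 in FeSO4/PBS and 44, 57 and 36 in FeSO4/DEX mice, with an edgeR adjusted p of 0.0011 for DEX in NaCl mice. For FeSO4 without DEX its edgeR adjusted p was 0.79, and 0.0026 without NaCl/PBS mouse 2. Without that mouse the LFC of Tlr2 for DEX was -1.61 and that of Cd14 for FeSO4 4.71, with both calls kept, and Cd14 was then called higher after DEX in NaCl mice as well, with 1.12 (edgeR adjusted p 0.042) in place of 0.43 (0.53). Tnf had at most 24 reads in any mouse, in NaCl/PBS mouse 2.

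Of the adaptors and kinases, 33 of 33 were tested. After FeSO4 without DEX 16 were higher and 6 lower (median LFC 0.30, or -0.02 with 12 and 13 under scaling by library size alone), and after DEX in NaCl mice 1 was higher and 7 lower (-0.06). FeSO4 raised Map3k8, the kinase TPL2, with an LFC of 2.82 ± 0.32 (edgeR adjusted p 6.0e-06), and the Toll-like receptor adaptors Ticam1, 1.54 ± 0.14 (edgeR adjusted p 1.3e-06), and Myd88, 1.41 ± 0.30 (edgeR adjusted p 0.0011). It lowered Traf5, -1.55 ± 0.31 (edgeR adjusted p 8.2e-04), Ikbke, which encodes the IKK-related kinase IKKepsilon, -1.43 ± 0.17 (edgeR adjusted p 8.7e-06), and Tradd, -1.07 ± 0.22 (edgeR adjusted p 0.0011). DEX in NaCl mice raised Ticam1, 0.90 ± 0.14 (edgeR adjusted p 7.6e-04), and lowered Map3k14, the kinase NIK of the noncanonical pathway, -1.31 ± 0.25 (edgeR adjusted p 0.0026). Malt1, a paracaspase of the CARD-BCL10-MALT1 complex, fell with -0.93 ± 0.24 (edgeR adjusted p 0.017), a call lost without NaCl/DEX mouse 2 (edgeR adjusted p 0.074), NaCl/PBS mouse 1 (just above 0.05) or NaCl/PBS mouse 2 (0.051).

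Of the other inhibitors, 19 of 21 were tested. After FeSO4 without DEX 11 were higher and 3 lower (median LFC 0.49, or 0.17 with 8 and 5 under scaling by library size alone). After DEX in NaCl mice 3 were higher and 2 lower (-0.04). Nfkbib, which encodes IkappaBbeta, rose after FeSO4 with an LFC of 2.21 ± 0.13 (edgeR adjusted p 3.0e-08), as did Tnip2, a binding partner of A20, 2.27 ± 0.21 (edgeR adjusted p 1.2e-06). Cyld and Itch, which regulate ubiquitin chains on signaling proteins, fell, with -0.57 ± 0.16 (edgeR adjusted p 0.0068) and -0.86 ± 0.11 (edgeR adjusted p 1.5e-05). DEX in NaCl mice lowered Nfkbie, the gene of IkappaBepsilon, -1.92 ± 0.41 (edgeR adjusted p 0.0065), and Zfp36l1, a relative of Zfp36, -0.85 ± 0.19 (edgeR adjusted p 0.0071). Dusp1, a MAP kinase phosphatase, and Tsc22d3, which encodes GILZ, are also GR targets. Dusp1 rose both after FeSO4, 2.37 ± 0.31 (edgeR adjusted p 2.7e-05), and after DEX in NaCl mice, 1.93 ± 0.31 (edgeR adjusted p 7.7e-04), while Tsc22d3 fell after FeSO4, -1.86 ± 0.18 (edgeR adjusted p 1.5e-06), and rose after DEX, 1.68 ± 0.17 (edgeR adjusted p 2.2e-05).

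Of the NF-kappaB target genes, 29 of 40 were tested. After FeSO4 without DEX 10 were higher and 6 lower (median LFC 0.29, or -0.04 with 9 and 10 under scaling by library size alone). After DEX in NaCl mice 5 were higher and 9 lower (-0.81, or -0.64 with the 5 genes that had 3 reads or fewer in every mouse of a group set at the bound that 3 reads per library give). FeSO4 raised Gadd45b, 4.80 ± 0.53 (edgeR adjusted p 5.5e-06), Lcn2, the gene of lipocalin-2, 3.88 ± 0.53 (edgeR adjusted p 3.3e-05), and the chemokine gene Cxcl2, with 1, 28 and 1 reads in NaCl/PBS and 105, 189 and 112 in FeSO4/PBS mice (edgeR adjusted p 5.6e-04). Irf1, Nuak2 and Xiap fell, with -1.87 ± 0.19 (edgeR adjusted p 2.8e-06), -1.45 ± 0.29 (edgeR adjusted p 7.5e-04) and -1.05 ± 0.11 (edgeR adjusted p 2.6e-06). DEX in NaCl mice raised Gadd45b, 4.34 ± 0.52 (edgeR adjusted p 8.2e-05), and Bcl2l1, the gene of the survival protein BCL-XL, 2.65 ± 0.15 (edgeR adjusted p 9.4e-08). It lowered the chemokine genes Cxcl1, -5.39 ± 1.06 (edgeR adjusted p 0.0036), and Cxcl10, -2.99 ± 0.53 (edgeR adjusted p 0.0017). Without NaCl/PBS mouse 2 the LFCs of Cxcl1 and Cxcl10 were -3.05 and -2.18, and that of Lcn2 for FeSO4 was 4.66, with the calls kept. The LFC of Lcn2 for FeSO4 was 3.17 without FeSO4/PBS mouse 1. Cxcl1 was not called after FeSO4 with all mice, with an LFC of 1.53 (edgeR adjusted p 0.11), and was called without NaCl/PBS mouse 2, with 3.87 (edgeR adjusted p 7.6e-05). For Cxcl2, which then has 1 read in each remaining NaCl/PBS mouse, the edgeR adjusted p was 3.9e-06.

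**Figure D5:**
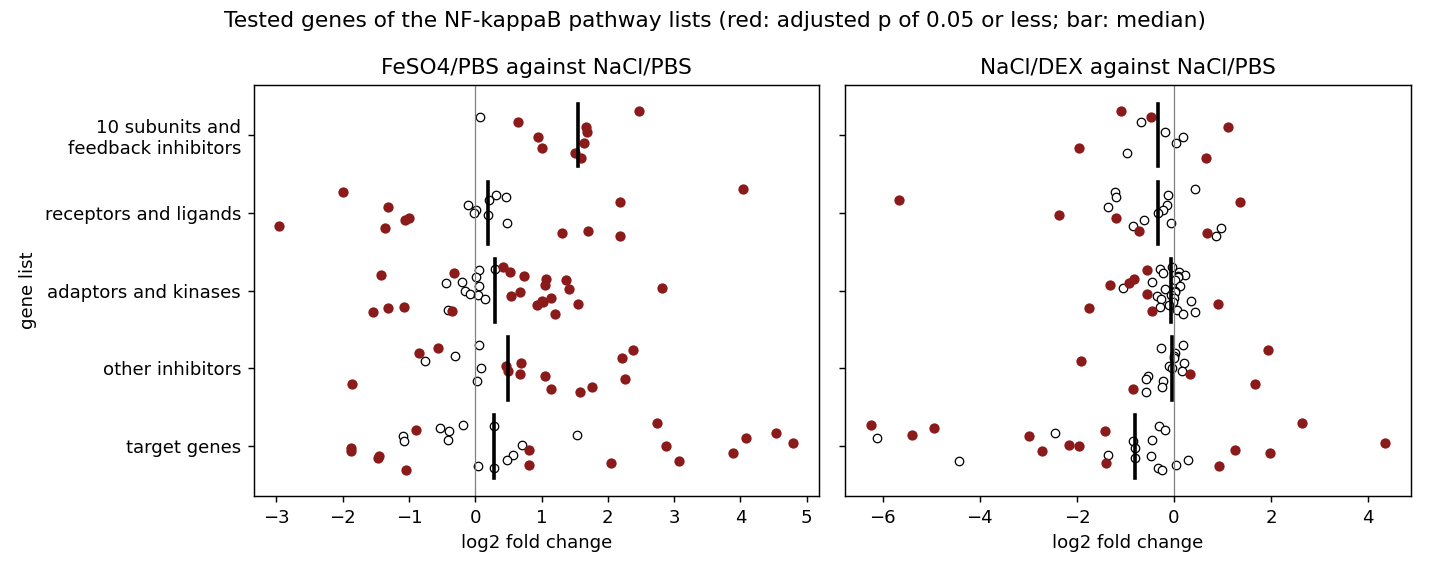
LFC of the tested genes of the members and of the 4 pathway lists after FeSO4 without DEX (left) and after DEX in NaCl mice (right), 1 point per gene, red at an edgeR adjusted p of 0.05 or less, with a bar at each list's median. The medians after FeSO4 are 1.55 for the 10 members and 0.20 for the receptors and ligands. They are 0.29 to 0.49 for the adaptors and kinases, other inhibitors and target genes, beside -0.02 over all tested genes. Under scaling by library size alone those of the receptors and ligands, adaptors and kinases, other inhibitors and target genes are -0.13, -0.02, 0.17 and -0.04. The median over all tested genes is then -0.34. Values of genes with few reads depend on the prior count.

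Of the 10 GR targets, 8 rose and 0 fell after DEX in NaCl mice (median LFC 2.06; by unadjusted p under 0.05 0 and by DESeq2 0 fell), and after FeSO4 without DEX 9 were higher and 1 lower (median LFC 1.22). Ddit4 had LFCs of 4.93 ± 0.25 (edgeR adjusted p 3.7e-08) by DEX and 3.19 ± 0.23 (edgeR adjusted p 1.5e-07) by FeSO4. Tat, the gene of tyrosine aminotransferase, had 2.48 ± 0.19 (edgeR adjusted p 2.5e-07) by FeSO4. Fam107a had at most 5 reads in any NaCl/PBS mouse and a mean normalized count of 1085 ± 118 in the NaCl/DEX mice (edgeR adjusted p 2.1e-08). After DEX in FeSO4 mice, 0 of the 108 tested genes of the pathway and GR target lists were called by edgeR, 10 had an unadjusted p under 0.05, and DESeq2 called 1, Ddit4.

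Markers of other liver cells were counted as well. After FeSO4 without DEX 27.2% of all tested genes were higher and 27.3% lower, and after DEX in NaCl mice 6.50% and 7.15%. The marker counts here and in the next paragraph stand beside these shares. Of 10 neutrophil markers 7 were tested and 6 rose after FeSO4 without DEX, led by Retnlg, 3.70 ± 0.37 (edgeR adjusted p 2.2e-06), S100a9, 2.84 ± 0.33 (edgeR adjusted p 7.7e-06), and Cxcr2, 2.79 ± 0.48 (edgeR adjusted p 2.4e-04). Their summed normalized counts were 122 to 299 in the NaCl/PBS, 86.6 to 125 in the NaCl/DEX, 814 to 969.7 in the FeSO4/PBS and 605 to 731 in the FeSO4/DEX mice. Ltf was at 0 in all NaCl/PBS mice and Ly6g, Camp and Ngp in all NaCl/DEX mice. Retnlg had at most 14 reads in any NaCl/PBS mouse. A marker with few reads in NaCl mice can pass the filter on low counts through the FeSO4 mice. Such a marker can hardly come out lower, so that 6 of 7 is not read as a result about neutrophils. Without NaCl/PBS mouse 2, the highest of its group, the LFCs of S100a9 and Cxcr2 were 3.48 and 3.62. After DEX in NaCl mice 1 of the 7, Csf3r, fell, -1.06 ± 0.27 (edgeR adjusted p 0.018), and not without NaCl/PBS mouse 2 (edgeR adjusted p 0.097) or NaCl/DEX mouse 1 (0.069) or mouse 3 (0.077). Of 12 Kupffer cell and macrophage markers 10 fell after FeSO4, among them Marco, -1.81 ± 0.41 (edgeR adjusted p 0.0020), Csf1r, -1.16 ± 0.16 (edgeR adjusted p 5.0e-05), and Cd5l, -1.15 ± 0.18 (edgeR adjusted p 9.8e-05). Their sums were 12199 to 13847 in the NaCl/PBS, 10939 to 12698 in the NaCl/DEX, 7347 to 8355 in the FeSO4/PBS and 6392 to 9762 in the FeSO4/DEX mice, with no marker at 0. The part of these cells in the results for the members was not tested.

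Of the 8 sinusoidal endothelial markers 1 rose and 6 fell after FeSO4 without DEX, with sums of 7234 to 8177, 6046 to 6699, 4787 to 6211 and 3802 to 6822 in the 4 groups in the same order. Lyve1 was the one that rose, 2.83 ± 0.24 (edgeR adjusted p 4.8e-07), and Gpr182, -1.96 ± 0.21 (edgeR adjusted p 4.9e-06), and Kdr, -1.89 ± 0.31 (edgeR adjusted p 1.7e-04), fell. Of the 8 hepatocyte markers 4 rose and 0 fell, among them Hnf4a, 0.98 ± 0.11 (edgeR adjusted p 6.9e-06), and Fgb, 0.95 ± 0.19 (edgeR adjusted p 6.8e-04). With library size alone 2 hepatocyte markers rose and 1 fell, and their median LFC was 0.03 in place of 0.35. Of the 8 stellate cell markers 3 rose and 1 fell (sums 6496 to 6911, 6194 to 7377, 7921 to 10654 and 8723 to 10018), of 4 tested of 6 monocyte markers 1 rose and 2 fell (198 to 249.7, 188 to 247, 258 to 310.5 and 223 to 271), and of 8 tested of 12 lymphocyte markers 0 rose and 2 fell (103 to 166, 70.5 to 103, 102 to 111 and 75.4 to 119.6). Ncr1 was at 0 in both FeSO4 groups, and no other marker of these 5 lists was at 0 in a whole group. The 3 stellate cell markers that rose and the 2 lymphocyte markers that fell are near the shares of all tested genes. These counts are not read as results about those cells. With library size alone 1 stellate cell marker rose and 1 fell. After DEX in NaCl mice the counts of markers higher and lower were 0 and 0 for Kupffer cells, 1 and 2 for endothelium, 0 and 1 for stellate cells, 2 and 0 for hepatocytes, 0 and 0 for monocytes and 0 and 0 for lymphocytes.

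The genes whose log2 values followed each member most closely over the 12 libraries were listed by Pearson's correlation, as a description, since the livers fall into 4 groups and genes that moved with FeSO4 share that pattern. They were Il20rb (0.995) and Psmd8 (0.991) for Rela, Plekho2 (0.985) and Junb (0.982) for Relb, Hivep2 (0.984) and Sec24a (0.983) for Rel, Slc25a24 (0.962) and Notch2 (0.960) for Nfkb1 and Trim6 (0.939) and Klf10 (0.933) for Nfkb2. For the inhibitors they were Slc38a2 (0.984) and Tacc2 (0.982) for Nfkbia, Fosl2 (0.972) and Socs7 (0.970) for Nfkbiz, Hcar2 (0.991) for Bcl3, Mfsd2b (0.966) and Rtl8a (0.964) for Tnfaip3 and Jun (0.988) and Picalm (0.985) for Zfp36. Among the members, Rela and Bcl3 had a correlation of 0.96 and Nfkbia and Zfp36 one of 0.95, while Nfkbia and Nfkb1 had 0.19.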

How the data were processed

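Bulk RNAseq of 12 mouse livers was analysed. Per the labels and the methods, the authors prepared stranded mRNA libraries, sequenced single-end reads of 100 cycles, ran FastQC, aligned to mm39 by STAR 2.7.10b using junctions of GENCODE release 28, and deposited raw counts of reads per gene for 55414 Ensembl genes, without normalization. The GENCODE vM39 annotation (GRCm39) gave symbols to 54749 of these genes. The replicates are separate mice.

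From the deposited counts, 13857 genes passed edgeR's filterByExpr and entered 1 quasi-likelihood model of the 4 groups (edgeR 4.0.16, limma 3.58.1, R 4.3.3) with TMM factors of 0.871 to 1.16. Of the table's genes, 30401 had no count. The contrasts were those of the text, with the Benjamini-Hochberg threshold at 0.05. SEs were taken from the F statistic, and 95% intervals from the t distribution with residual and prior degrees of freedom. LFCs carry a prior count of 0.125, and normalized counts are counts scaled by TMM to the average effective depth. Totals had a median of 19602514. The test was run on simulated data with known changes. Python 3.11.15, numpy 2.4.6, pandas 2.3.3, scipy 1.17.1 and matplotlib 3.10.9 were used for the rest.

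The members and the lists (receptors and ligands, adaptors and kinases, other inhibitors, target genes, GR targets, and markers of 7 cell types) were chosen with earlier results of these data known. Besides all members, genes named were, per list, at most 3 with the largest rise and 3 with the largest fall after FeSO4 and 2 of each after DEX in NaCl mice, among called genes with a mean of at least 50 normalized counts in the higher group, of which some are left unnamed here, and the 2 genes with the highest correlation with each member, apart from Gm and Rik genes. For Bcl3 1 of the 2 is not reported here. Ratios, the canonical transcript as length, and Socs3, S100a9 and Tnf as context were chosen after values had been seen. Alternatives were DESeq2 1.42.0, its size factors, library size alone, no filter, 10 or more counts in all libraries, a replicate block, the libraries of a comparison alone, an LFC beyond 1, each mouse left out, and all exons as length. The qPCR, protein and survival data of the study were not analysed here.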

Additional observations from a re-analysis of the deposited data

Results flagged for a closer look

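The DEX response differed between NaCl and FeSO4 mice, by the test of the difference itself (FeSO4 mice minus NaCl mice, log2 scale, edgeR adjusted p of 0.05 or less), for 2 members and for 15 named genes of the other lists. Of all genes tested, 2.99% were called higher and 3.20% lower for the difference. The named genes were picked for large changes after FeSO4 or after DEX in NaCl mice. The difference reuses those values, so that the number of named genes does not measure how common such differences are. Among the members the difference was 1.89 for Relb and -0.96 for Nfkbia. Among the receptors, ligands and adaptors it was 4.70 for Il1b, -1.75 for Il1r1, 1.37 for Tlr3 and -1.17 for Ticam1. The value of Il1b rests on 2, 3 and 0 reads in the NaCl/DEX mice, and it was 3.21 without NaCl/PBS mouse 2. The target genes Lcn2, Gadd45b, Bcl2l1 and Irf1 had -2.84, -3.07, -2.67 and 1.87. The GR targets Tsc22d3, Dusp1, Tat, Ddit4 and Fam107a had -1.44, -1.95, -2.20, -3.55 and -9.08, the last from at most 5 reads in each NaCl/PBS mouse. The endothelial markers Lyve1 and Kdr had -2.13 and 1.78. The differences of Il1b, Lcn2 and Kdr lost their call without several single mice, up to 7 for Kdr, with edgeR adjusted p-values of up to 0.099, 0.065 and 0.066.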

How the results depend on the processing

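Of 940 LFCs of members recomputed under the alternatives and with each mouse left out in turn, 885 kept their direction and their side of the threshold, 21 lost their call, 13 gained one and 21 changed sign, none of these being called in either fit. Scaling by library size alone gave an LFC of -0.25 for Nfkb1 after FeSO4, -0.11 for Rela after DEX in NaCl mice and 0.12 for the difference of Rel. It lost the calls of Nfkb2 (edgeR adjusted p 0.20) and Relb (0.063) after FeSO4, and moved 8 of 40 mean levels by more than 1 SD, to 0.895 to 1.14 times their value, where DESeq2's size factors moved 0. The difference of Rel was 0.011 with at least 10 counts in every library. Requiring an LFC beyond 1 as well left 1 member higher after DEX in NaCl mice, 6 higher after FeSO4 with DEX, and 0 lower for the difference. Without a filter on low counts 5 members were lower after DEX in NaCl mice, and 2 higher for the difference, as with DESeq2. Same-numbered mice had correlations of residuals of -0.08 to 0.12, with 2 of 18 pairs over 0.1. Other-numbered mice had -0.14 to 0.093, with 0 of 36 pairs over 0.1. The 2 pairs over 0.1 were mice 1 (0.12) and mice 2 (0.10) of NaCl/DEX and NaCl/PBS. The labels name no pairing, and these correlations do not settle whether the numbers pair the mice. With the replicate block 5 members were lower after DEX in NaCl mice, Nfkb2 (0.045) and Tnfaip3 (0.043) besides the 3, and the difference of Rel was 0.0076; the block changed no other call of a member. With each mouse left out, 1 to 2 members were higher and 1 to 4 lower after DEX in NaCl mice, and 0 to 2 were higher and 0 to 1 lower for the difference. LFCs that changed sign then ranged from -0.045 to 0.16 for Rela and -0.46 to 0.49 for Nfkbiz after DEX in NaCl mice, from -0.017 to 0.13 for Nfkb1, -0.25 to 0.040 for Relb and -0.0015 to 0.31 for Rel after DEX in FeSO4 mice, and from -0.20 to 0.13 for Rel, -0.19 to 0.84 for Nfkbiz and -0.43 to 0.58 for Tnfaip3 for the difference. Counts over the other lists moved by over 1.5 times with library size alone, from 6 to 13 lower adaptors and kinases, 3 to 5 lower other inhibitors, 6 to 10 lower target genes, 3 to 1 higher stellate cell and 4 to 2 higher hepatocyte markers after FeSO4, and 2 to 4 lower other inhibitors and 2 to 0 higher hepatocyte markers after DEX in NaCl mice. The other calls kept their counts within that range in both comparisons, except counts of 0 that became 1 (lower hepatocyte markers and, with DESeq2, higher lymphocyte markers after FeSO4, and lower monocyte markers after DEX). The cause of these changes was not tested. Over all genes, library size alone gave 618 higher and 1776 lower after DEX in NaCl mice, from 901 and 991, and 2151 and 4146 after FeSO4 with DEX, from 3103 and 2902, and 575 and 327 for the difference, from 414 and 443. For DEX in FeSO4 mice DESeq2 called 5 genes higher and 5 lower, and the fit without a filter 99 and 71, where edgeR called 0. Depth limits values that rest on few reads, such as those of Relb and Il1b in NaCl/DEX mice and of Cxcl2 and Fam107a in NaCl/PBS mice.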
